A study of Mus musculus with 8 samples.

Results

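Mitochondrial solute carrier genes were taken as the mouse protein-coding genes with a symbol made of Slc25a and a number, without Slc25a37 and Slc25a38. This gave 45 genes of the 21536 protein-coding genes with a known strand, in a RefSeq table of 21887. The libraries come from MEL cells, a mouse erythroleukaemia line, and show phosphorylated RNA polymerase II by CUT&Tag, a method in which transposase bound to an antibody inserts sequencing adapters around the antibody's target. There were 8 libraries in 4 groups of 2. The groups were the Myrlin KD line and the dCAS control line, each with an antibody against Rpb1 phosphorylated on serine 2 (Ser2P) and each with one against Rpb1 phosphorylated on serine 5 (Ser5P). The KD line has a knockdown of Myrlin, which the study's title names as the transcript of an enhancer of Myb, and the labels do not say whether either line is a single clone. Rpb1 is the large subunit of the polymerase. The labels call the libraries biological replicates and do not say how cultures were kept apart, so the spread behind each p-value may be technical.

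Carriers of the Slc25a family are membrane proteins that exchange small molecules, mostly across the inner mitochondrial membrane. They bring in ADP, phosphate, amino acids, vitamins and iron, and send out ATP, citrate and other products. Erythroid cells make haem partly in mitochondria, which needs iron and amino acids to cross that membrane. Ser5P is placed on polymerase near the start of transcription, and Ser2P accumulates as polymerase moves through the gene.

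Promoter sequences are shown for 8 of the genes, since the results below turn on them. Slc25a28, Slc25a42 and Slc25a29 had the 3 highest ranked promoter peaks of the family, Slc25a47 is the unmarked neighbour of Slc25a29, Slc25a4, Slc25a5 and Slc25a31 encode the ADP/ATP carriers, and Slc25a34 had promoter peaks in Ser2P KD libraries and in no other. This choice was made after their values were seen. Each is the RefSeq stretch of 300 bases on GRCm38.p6, from 250 bases before to 50 after the annotated start, 5′ to 3′ on the gene's strand. Capitals mark, on either strand, the GC box (CCGCCC), the CCAAT box (CCAAT), the ETS core (CCGGAA), the GATA core (AGATAA), the TATA box (TATAAA), part of the NRF1 motif (TGCGCA) and the E-box (CACGTG). The intervals are chr19:43674832-43675131 on the minus strand for Slc25a28, chr8:70212232-70212531 minus for Slc25a42, chr12:108835827-108836126 minus for Slc25a29 and chr12:108850879-108851178 plus for Slc25a47. They are chr8:46211013-46211312 minus for Slc25a4, chrX:36795347-36795646 plus for Slc25a5, chr3:40708621-40708920 plus for Slc25a31 and chr4:141623785-141624084 minus for Slc25a34.
Slc25a28: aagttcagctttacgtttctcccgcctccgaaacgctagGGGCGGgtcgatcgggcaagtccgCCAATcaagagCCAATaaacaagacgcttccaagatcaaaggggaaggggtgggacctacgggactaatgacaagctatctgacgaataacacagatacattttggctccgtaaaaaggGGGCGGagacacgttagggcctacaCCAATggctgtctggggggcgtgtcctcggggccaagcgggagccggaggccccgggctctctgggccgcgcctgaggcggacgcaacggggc
Slc25a42: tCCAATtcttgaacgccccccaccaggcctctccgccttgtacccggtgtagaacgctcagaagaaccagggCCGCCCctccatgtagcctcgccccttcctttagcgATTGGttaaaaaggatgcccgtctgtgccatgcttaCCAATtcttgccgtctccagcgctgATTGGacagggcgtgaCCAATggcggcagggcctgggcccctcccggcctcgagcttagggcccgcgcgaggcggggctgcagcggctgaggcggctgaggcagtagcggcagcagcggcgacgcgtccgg
Slc25a29: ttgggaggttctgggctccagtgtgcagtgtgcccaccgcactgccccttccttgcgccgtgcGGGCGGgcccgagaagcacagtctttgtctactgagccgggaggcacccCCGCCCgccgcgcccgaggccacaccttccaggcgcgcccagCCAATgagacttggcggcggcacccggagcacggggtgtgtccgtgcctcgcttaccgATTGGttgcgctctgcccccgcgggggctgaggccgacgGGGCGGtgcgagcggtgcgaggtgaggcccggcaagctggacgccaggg
Slc25a47: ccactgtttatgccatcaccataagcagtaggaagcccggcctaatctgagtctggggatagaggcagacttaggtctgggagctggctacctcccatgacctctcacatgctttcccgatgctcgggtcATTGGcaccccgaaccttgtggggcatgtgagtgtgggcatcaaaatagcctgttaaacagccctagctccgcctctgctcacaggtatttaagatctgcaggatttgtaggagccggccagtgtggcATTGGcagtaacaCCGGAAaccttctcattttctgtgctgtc
Slc25a4: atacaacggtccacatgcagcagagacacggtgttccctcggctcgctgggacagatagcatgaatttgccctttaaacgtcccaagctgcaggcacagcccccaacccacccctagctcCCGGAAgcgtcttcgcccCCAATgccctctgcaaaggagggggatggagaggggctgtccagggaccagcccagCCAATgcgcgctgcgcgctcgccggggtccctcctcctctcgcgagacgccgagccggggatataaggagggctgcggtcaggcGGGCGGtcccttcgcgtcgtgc
Slc25a5: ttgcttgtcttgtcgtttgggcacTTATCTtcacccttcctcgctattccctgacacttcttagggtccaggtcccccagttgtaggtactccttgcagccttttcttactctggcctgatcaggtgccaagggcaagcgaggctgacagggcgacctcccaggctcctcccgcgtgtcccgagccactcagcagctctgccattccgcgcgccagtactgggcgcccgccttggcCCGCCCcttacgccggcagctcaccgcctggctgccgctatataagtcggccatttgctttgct
Slc25a31: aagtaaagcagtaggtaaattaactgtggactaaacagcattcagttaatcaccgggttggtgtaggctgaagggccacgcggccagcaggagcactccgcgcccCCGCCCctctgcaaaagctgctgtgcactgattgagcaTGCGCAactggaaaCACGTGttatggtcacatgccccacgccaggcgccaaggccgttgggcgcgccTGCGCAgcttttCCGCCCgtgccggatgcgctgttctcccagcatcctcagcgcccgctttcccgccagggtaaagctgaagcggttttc
Slc25a34: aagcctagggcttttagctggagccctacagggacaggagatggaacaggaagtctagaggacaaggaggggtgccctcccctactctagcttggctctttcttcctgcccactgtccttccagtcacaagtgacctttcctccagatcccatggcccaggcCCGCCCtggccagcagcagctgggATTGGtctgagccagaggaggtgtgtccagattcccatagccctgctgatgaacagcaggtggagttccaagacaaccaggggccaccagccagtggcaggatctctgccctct

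Of the lists, Ser2P held 32125 and 29372 peaks in KD, against 30286 and 20793 in control, and Ser5P held 21574 and 24509 in KD, against 23964 and 25441 in control. The background pileup, a measure of relative depth solved from the authors' fold and p of each peak, was 1.122 and 1.025 in Ser2P KD, against 0.783 and 0.438 in Ser2P control. It was 0.647 and 0.839 in Ser5P KD, against 0.568 and 0.641 in Ser5P control. Median peak width was 478 and 479 bp in Ser2P KD, against 428 and 381 bp in Ser2P control, and 533.5 and 532 bp in Ser5P KD, against 486 and 497 bp in Ser5P control. Every KD library thus had wider peaks than both control libraries of its antibody. Both Ser2P KD libraries, and Ser5P KD 2, were also deeper than both controls. Ser5P KD 1 was close in depth to Ser5P control 2, at 0.647 against 0.641, and had the fewest peaks of the Ser5P libraries. Ser2P control 2 stood apart as the shallowest of all with the fewest peaks. Of 12 erythroid markers 7 had a Ser5P promoter peak in all 4 libraries, against 0 of 6 lymphoid, 0 of 6 myeloid, 2 of 5 megakaryocyte and mast cell and 0 of 6 non-haematopoietic markers. The erythroid genes Gata1, Alas2, Slc4a1 and Hbb-bt had no Ser5P peak at the outer 5′ end used here.

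Most of the carrier genes had polymerase peaks at the promoter in both lines and with both antibodies. The promoter window spans 1000 bp each side of the 5′ end, and a gene was called marked if any peak shared 1 bp or more with it. Of the 45 genes 28 (62.2%) were marked in all 8 libraries, against 34.5% of all genes, 10 were marked in some, and 7 (15.6%) in none, against 52.0% of all genes. The unmarked 7 were Slc25a2, Slc25a18, Slc25a27, Slc25a41, Slc25a47, Slc25a48 and Slc25a54. At the 5′ end itself, 66.67% and 64.44% of the carrier genes were covered by a Ser2P peak in KD, against 62.22% and 51.11% in control. For Ser5P 64.44% and 66.67% were covered in KD, against 60.0% and 55.56% in control. Cover declined on both sides, and at 2000 bp inside the 5′ end 0.0% of carrier genes were covered in every library, against 0.96% to 2.03% of all genes. At shares this low, 45 genes are too few to tell the carrier genes from all genes.

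**Figure D1:**
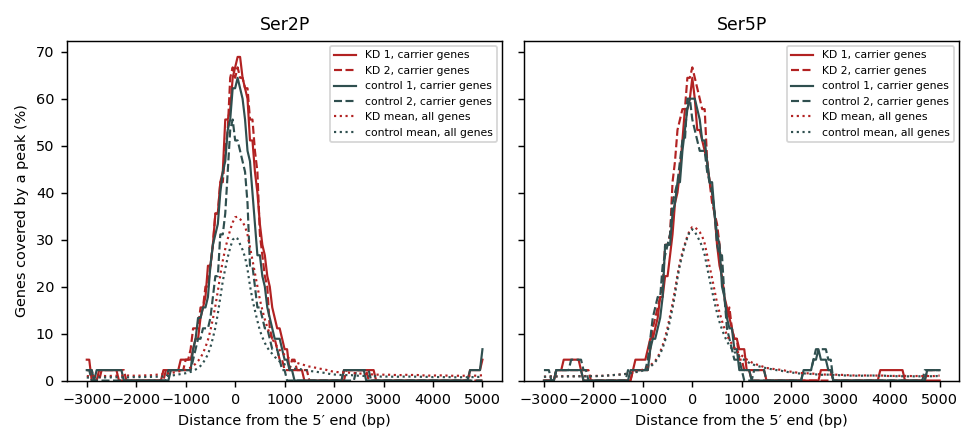
Share of genes covered by a peak (%, vertical axis) by distance from the 5′ end (bp, negative upstream), for Ser2P at left and Ser5P at right. Solid and dashed lines are the 2 libraries of each line for the 45 carrier genes, dotted lines the mean of the 2 libraries for all genes: at the 5′ end the carrier genes lie between 51.11% and 66.67%, all above the dotted lines.

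The strongest promoter peaks of the family belonged to Slc25a28, mitoferrin 2, an iron carrier, and Slc25a42, a coenzyme A carrier. Within each library's own list, ordered by the authors' p-value, the Slc25a28 peak ranked in the top 0.19% to 0.48% in the 8 libraries and the Slc25a42 peak in the top 0.13% to 1.04%. The Slc25a28 peak had a summit pileup of 194 and 180 in Ser2P KD, against 178 and 103 in Ser2P control, and 205 and 250 in Ser5P KD, against 189 and 264 in Ser5P control. The Slc25a42 pileup was 239 and 189 in Ser2P KD, against 182 and 89 in Ser2P control, and 175 and 211 in Ser5P KD, against 168 and 162 in Ser5P control. These pileups were not scaled for depth, and no change between lines was read from them. The summits lay 168 to 296 bp upstream of the outer 5′ end of Slc25a28 and 229 to 298 bp upstream of that of Slc25a42. Those of Slc25a28 lay outside the stretch printed above, and those of Slc25a42 near the upstream edge of its stretch or beyond it. Peaks covered at least 80.0% of the Slc25a28 stretch and at least 82.3% of the Slc25a42 stretch in every library. The promoters printed above hold 3 CCAAT boxes for Slc25a28, 5 for Slc25a42 and 2 for Slc25a29, a carrier of basic amino acids whose peak ranked in the top 0.55% to 3.85%. Slc25a47, which had no promoter peak and no peak on its printed stretch, also holds 2, and Slc25a3, with a median rank of 7.555%, holds 0. A link between CCAAT boxes and rank was not tested. The peak of Slc25a17, a cofactor carrier of peroxisomes, ranked in the top 0.94% to 7.43%. At the other end, the peaks of Slc25a24, Slc25a31, Slc25a43 and Slc25a15 had median ranks of 79.185%, 75.86%, 73.23% and 68.97%. The ranks of neighbouring genes in this order overlap between libraries.

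**Figure D2:**
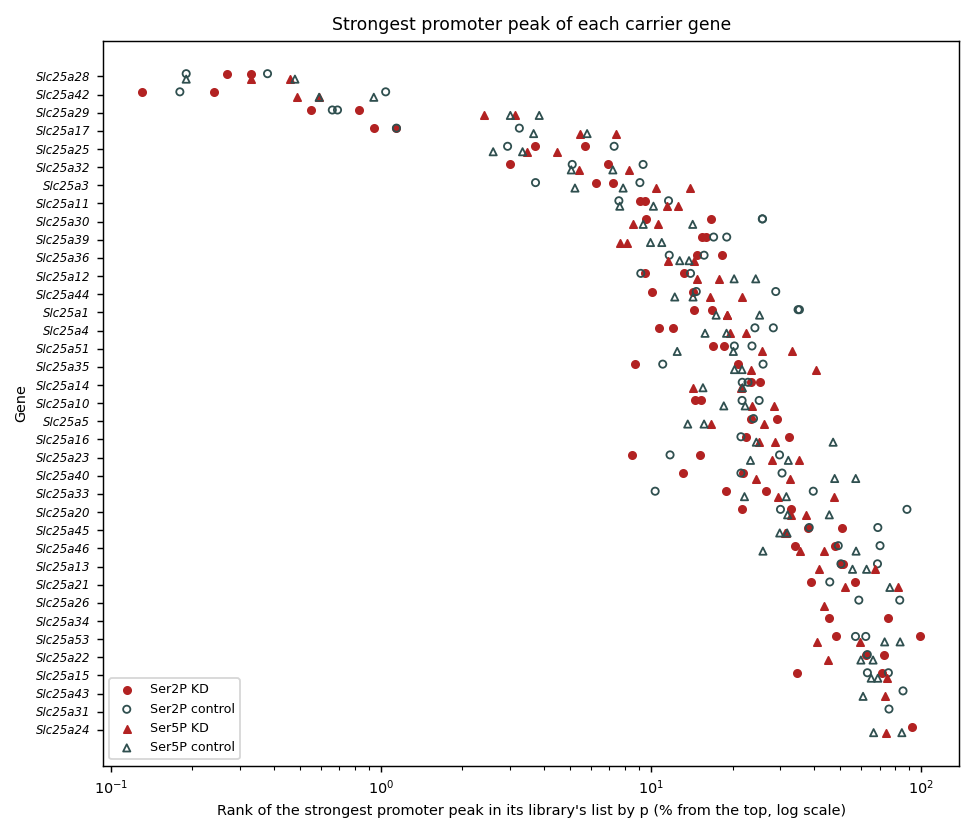
Rank of each carrier gene's strongest promoter peak within its own library's list (horizontal axis, % from the top by p, log scale) for 37 of the 38 genes with any promoter peak. Circles are Ser2P, triangles Ser5P, filled red KD and open dark control: Slc25a28 and Slc25a42 lie at 1.04% or less in every library, and Slc25a24 lies between 66.55% and 92.06%.

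Among the adenine nucleotide and phosphate carriers, 4 of 8 genes had a Ser2P promoter peak in all 4 libraries and 5 of 8 a Ser5P peak. Over the family these numbered 29 for Ser2P, against 36.3% of all genes, and 30 for Ser5P, against 37.7%. Slc25a3, the phosphate carrier, had 1273 and 1291 bp of its promoter window covered by Ser2P in KD, against 1071 and 498 bp in control. Its Ser5P cover was 1192 and 1229 bp in KD, against 1294 and 1344 bp in control, so KD lay above control without overlap for Ser2P and below it for Ser5P. The 3 ADP/ATP carrier genes differed from one another. Slc25a4, the form of heart and muscle, had 997 and 743 bp of Ser2P in KD, against 1040 and 644 bp in control, and 839 and 707 bp of Ser5P in KD, against 860 and 1070 bp in control. Slc25a5, the form of dividing cells, had 1093 and 650 bp of Ser2P in KD, against 797 and 0 bp in control, and 1085 and 851 bp of Ser5P in KD, against 1097 and 746 bp in control. Slc25a31, the form of testis, had a single promoter peak, of 584 bp, in Ser2P control 1. The genome holds processed copies of Slc25a5, and how reads that match several places were treated is not given in the sources used here. The calcium-regulated ATP-Mg/phosphate carriers also split. Slc25a25 was covered broadly, with 1238 and 1378 bp of Ser2P in KD, against 1162 and 968 bp in control, and Slc25a23 more narrowly, with 488 and 477 bp in KD, against 509 and 399 bp in control. Slc25a24 had 0 and 265 bp of Ser5P in KD, against 673 and 409 bp in control, and Slc25a41 had no promoter peak.

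Among the di- and tricarboxylate carriers, 4 of 6 genes were marked at the promoter in all 4 libraries of each antibody. The broadest cover was at Slc25a10, the dicarboxylate carrier, with 1316 and 1375 bp of Ser2P in KD, against 1254 and 971 bp in control, and 1272 and 1461 bp of Ser5P in KD, against 1185 and 1250 bp in control. Slc25a11, the oxoglutarate carrier, had 1333 and 1390 bp of Ser2P in KD, against 1016 and 887 bp in control. The 5′ end of Rnf167 lies in the same window, and the summits lay 581 to 648 bp inside Slc25a11. Slc25a1, the citrate carrier, had 942 and 1146 bp of Ser2P in KD, against 1200 and 1150 bp in control. Slc25a21, which carries oxodicarboxylates, had the widest Ser2P promoter difference of the family, with 1259 and 1139 bp of Ser2P in KD, against 392 and 0 bp in control. Its Ser5P cover did not separate the lines, with 363 and 1213 bp in KD, against 695 and 0 bp in control. Slc25a34 had 446 and 398 bp of Ser2P in KD, against 0 and 0 bp in control, and no Ser5P peak in any library.

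Of the 10 amino acid and glutathione carriers, 7 had a Ser2P and 6 a Ser5P promoter peak in all 4 libraries. Slc25a40, with Slc25a39 one of the glutathione carriers, had the broadest Ser2P cover of the family, with 1290 and 1136 bp in KD, against 1368 and 1335 bp in control. Its window also holds the 5′ end of Dbf4. Slc25a39 had 1205 and 818 bp of Ser2P in KD, against 542 and 391 bp in control, and 1199 and 991 bp of Ser5P in KD, against 1006 and 900 bp in control. The lines were thus apart for Ser2P and overlapped for Ser5P. Slc25a29 had 1281 and 1311 bp of Ser2P in KD, against 1176 and 911 bp in control. Slc25a12 and Slc25a13, the aspartate/glutamate carriers, and Slc25a44, a carrier of branched-chain amino acids, were marked in all 8 libraries. Of the glutamate carriers, Slc25a22 was marked in 6 libraries and Slc25a18 in none. Of the ornithine carriers, Slc25a15 was marked in 7 libraries and Slc25a2 in none.

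The cofactor, nucleotide and acylcarnitine carriers were marked at the promoter almost throughout, 8 of 10 genes in all 4 Ser2P and 9 of 10 in all 4 Ser5P libraries. Slc25a32, a folate and FAD carrier, had 1071 and 1122 bp of Ser2P in KD, against 849 and 751 bp in control, and shares its window with the 5′ end of Dcaf13. Slc25a17 had 1042 and 1390 bp of Ser2P in KD, against 830 and 729 bp in control. Slc25a33, a pyrimidine nucleotide carrier, was covered more in KD by both antibodies without overlap. It had 884 and 1217 bp of Ser2P in KD, against 629 and 417 bp in control, and 861 and 899 bp of Ser5P in KD, against 592 and 460 bp in control. Slc25a26, the S-adenosylmethionine carrier, had 0 and 0 bp of Ser2P in KD, against 243 and 426 bp in control, while its single Ser5P peak, of 375 bp, was in KD 2. Slc25a36, another pyrimidine nucleotide carrier, Slc25a51, the NAD carrier, and Slc25a20, the carnitine/acylcarnitine carrier, were marked in all 8 libraries. The iron carrier Slc25a28 had 962 and 1111 bp of Ser2P in KD, against 954 and 765 bp in control, and 1076 and 1035 bp of Ser5P in KD, against 1010 and 1082 bp in control.

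Of the 3 uncoupling protein-like carriers, Slc25a14 and Slc25a30 were marked at the promoter in all 8 libraries and Slc25a27 in none. In the last group, of 7 genes of the outer membrane or of less well known role, Slc25a45, Slc25a46, a protein of the outer membrane, and Slc25a53 were marked in all 8 libraries. Slc25a43 was marked in 3, with 0 and 1097 bp of Ser5P in KD, against 0 and 871 bp in control. Slc25a47, Slc25a48 and Slc25a54 were marked in none. Slc25a2, Slc25a27, Slc25a48 and Slc25a54 had no peak of either antibody in either window, which at this depth does not show that polymerase was absent.

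**Figure D3:**
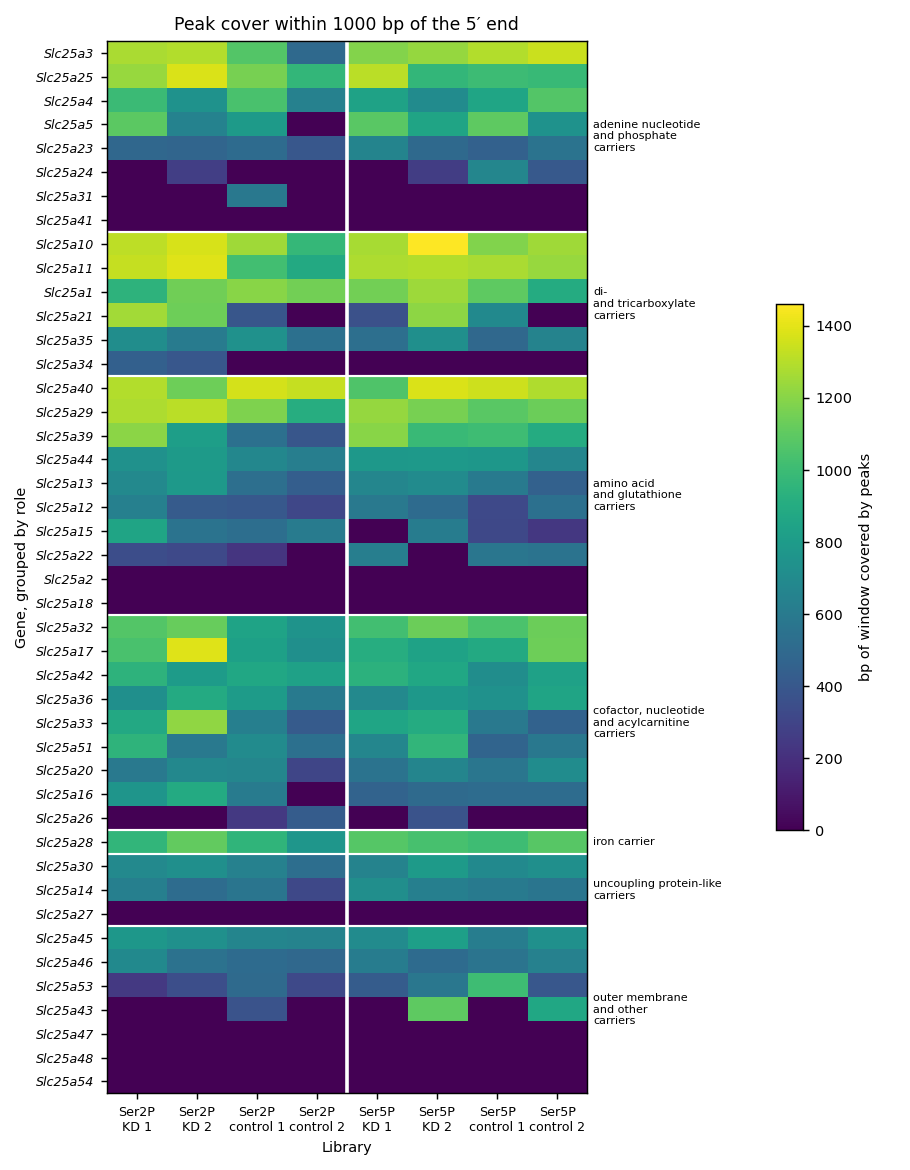
Base pairs of the promoter window (1000 bp each side of the 5′ end) covered by peaks, as a colour from 0 to 1461 bp, for 44 of the 45 carrier genes (rows, grouped by role) in the 8 libraries (columns). Slc25a34 is coloured in the Ser2P KD columns and in no other, Slc25a26 is dark in both Ser2P KD columns, and 7 rows are dark throughout.

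Marked and unmarked carrier genes lay side by side in the genome. The pairs with no protein-coding gene between them numbered 4. On chromosome 12 Slc25a29 was marked in 8 libraries and Slc25a47, 13956 bp away on the other strand, in 0. On chromosome 17 Slc25a23 was marked in 8 and Slc25a41, 2056 bp away, in 0. The Slc25a23 summits lay upstream, at -671 to -530 bp from its 5′ end. No peak covered any of the 300 bases around the annotated start of Slc25a23, so its mark is that of the wider window only. On chromosome 3 Slc25a24 was marked in 4 and Slc25a54, 6566 bp away, in 0. On chromosome X Slc25a5 was marked in 7 and Slc25a43, 18289 bp away, in 3. One gene of each pair was thus marked in more libraries than its neighbour. Slc25a29 and Slc25a47, whose promoters are printed above, differ in base composition, with 72.3% against 53.3% G and C and 32 against 7 CpG dinucleotides. The annotated start of the Slc25a47 stretch lies 1296 bp inside the outer 5′ end. That stretch is thus outside the promoter window called unmarked and falls in the body window. No peak covered it in any library.

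RefSeq promoter sequences were found for 35 of the 45 genes. For each carrier gene only the start nearest its outer 5′ end was used. The comparison set holds every listed start of protein-coding genes, so some genes count more than once there and inner starts are included. The shares below are therefore not strictly like for like. The 300 bases had a median G and C content of 64.0% at genes whose promoter window was marked in all 8 libraries (n = 22), 59.7% at those marked in some (n = 9) and 54.8% at those marked in none (n = 4), against 56.3% over 21263 promoters. The median number of CpG dinucleotides was 24.5, 15.0, 10.5 and 13.0 in the same order. The GC box stood in 82.9% of the carrier promoters, against 46.2% of all promoters, the CCAAT box in 48.6%, against 38.2%, and the ETS core in 31.4%, against 18.7%. The E-box stood in 17.1%, against 7.8%, and the NRF1 part in 11.4%, against 9.7%. The TATA box stood in 2.9%, that of Slc25a18, against 12.6%, and the GATA core in 5.7%, those of Slc25a5 and Slc25a53, against 9.7%. Matches were counted on both strands, and these motifs do not contain one another. The marked state is that of the window at the outer 5′ end. Of the 22 genes marked in all 8 libraries, 20 had a peak on the 300 bases themselves in all 8, and Slc25a39 had one in 2 and Slc25a23 in 0. These shares describe letters in a window and say nothing of a factor's binding.

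The body window started 1000 bp downstream of the 5′ end and closed 3000 bp beyond the 3′ end of the gene. Fewer carrier genes were marked there than at the promoter: 14 of 45 (31.1%) in all 8 libraries, against 21.9% of all genes, and 12 (26.7%) in none, against 47.2%. Ser2P marked 17 in all 4 libraries (26.4% of all genes) and 13 in none (50.5%), and Ser5P 18 in all 4 (25.5%) and 16 in none (54.1%). Slc25a3, Slc25a4, Slc25a11, Slc25a14, Slc25a20 and Slc25a36 had promoter peaks in all 8 libraries and no body peak in any. Slc25a18, Slc25a41 and Slc25a47 showed the opposite, with body peaks in all 8 libraries and no promoter peak. At Slc25a41 every library had a peak past the 3′ end whose summit lay 227 to 344 bp from the 5′ end of the neighbouring gene Khsrp. Both Ser5P control libraries, and no other, also had a peak inside Slc25a41, with summits 2546 and 2570 bp from its 5′ end. At Slc25a18 18 of the 26 peaks over the 8 libraries lay inside the gene, in every library. The other 8 lay 1425 to 1717 bp past the 3′ end in every library, with the nearest other 5′ end, of Atp6v1e1, more than 26 kb away. At Slc25a47 the peaks lay inside the gene or past its 3′ end. In all, the 8 libraries had 30 to 46 peaks in the body windows of the family, of which 20 to 31 had their summit inside the gene and 7 to 14 past its 3′ end. In every library 6 of them lay within 1000 bp of another gene's 5′ end, and the genes so placed in all 8 libraries included Slc25a16, Slc25a30, Slc25a41 and Slc25a44.

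The broadest Ser2P cover in the body was at Slc25a12, with 1352 and 2056 bp in KD, against 1706 and 1068 bp in control. Slc25a18 had 1563 and 1671 bp of Ser2P in KD, against 1459 and 1191 bp in control, and Slc25a47 had 1463 and 1979 bp in KD, against 1715 and 636 bp in control. Slc25a42 had 1193 and 1703 bp of Ser2P in KD, against 980 and 721 bp in control. At Slc25a18 and Slc25a42 both KD libraries lay above both control libraries for Ser2P. The same held in 8 of the 45 carrier genes (17.8%), near the share of all genes (16.7%). Broad Ser5P cover in the body was found at Slc25a18, Slc25a12, Slc25a41 and Slc25a51. Slc25a18 had 1380 and 1459 bp of Ser5P in KD, against 1365 and 1108 bp in control. Slc25a41 had 828 and 812 bp of Ser5P in KD, against 1084 and 1254 bp in control, where the control values include the peak inside the gene. Slc25a51 had 889 and 1102 bp in KD, against 1046 and 939 bp in control.

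**Figure D4:**
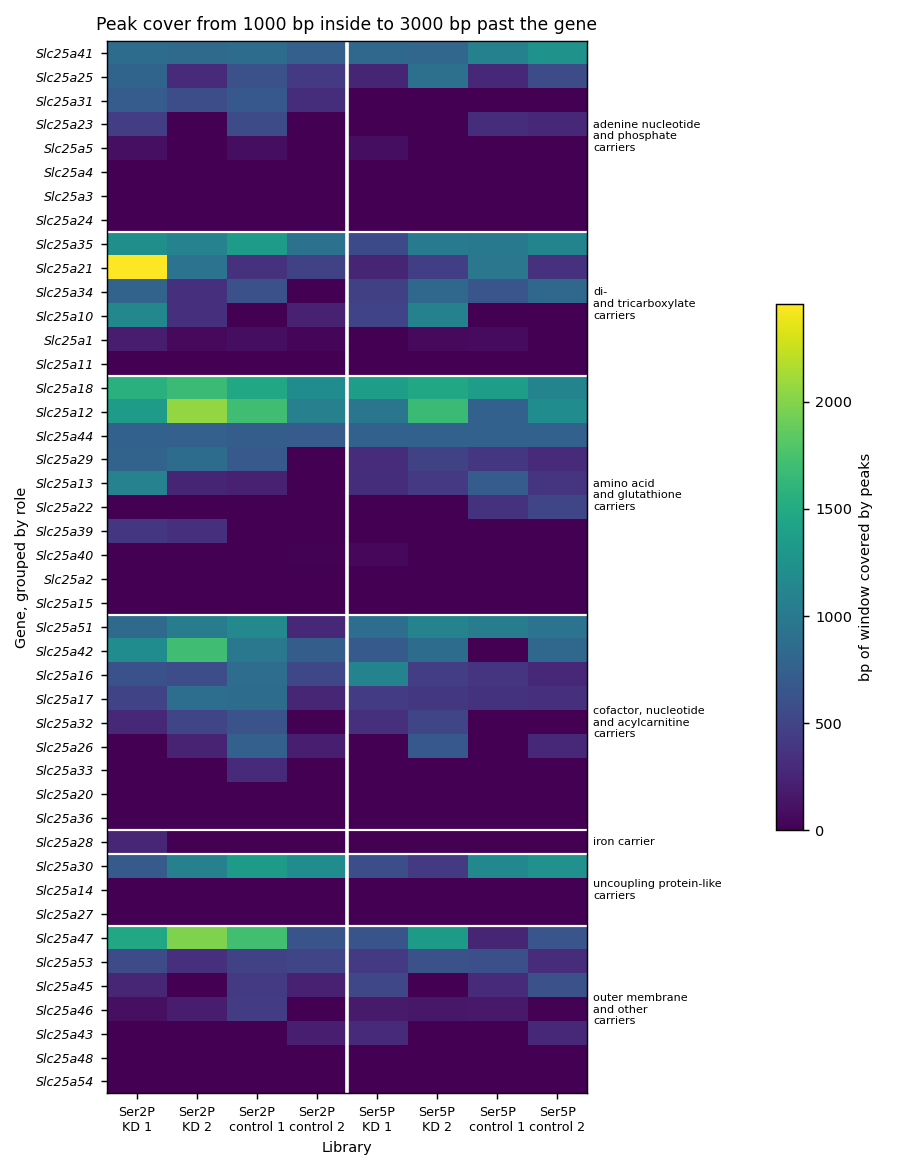
Base pairs of the body window (from 1000 bp downstream of the gene's start, closing 3000 bp beyond its 3′ end) covered by peaks, as a colour from 0 to 2457 bp, for 44 of the 45 carrier genes (rows, grouped by role) in the 8 libraries (columns). Slc25a12 and Slc25a18 are coloured in every column, and windows differ in length between genes.

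The number of carrier genes with a peak did not separate the lines. At the promoter 34 and 35 genes were marked by Ser2P in KD, against 36 and 30 in control, means of 34.5 ± 0.71 and 33.0 ± 4.24 (SD, n = 2 each; two-sided exact permutation p = 1.0). For Ser5P 32 and 35 were marked in KD, against 34 and 34 in control (exact p = 1.0). In the body 28 and 25 were marked by Ser2P in KD, against 27 and 22 in control, and 25 and 24 by Ser5P in KD, against 22 and 24 in control (exact p = 0.6667 for each). With 2 libraries against 2 the smallest two-sided p of this test is 0.333. The differences, KD minus control, were 1.5 genes for Ser2P and -0.5 for Ser5P at the promoter, and 2.0 and 1.5 in the body. Without Ser2P control 2 both Ser2P differences turned, to -1.5 and -0.5, and without Ser5P KD 1 that of the Ser5P promoter turned to 1.0.

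Both antibodies marked similar numbers of carrier genes. At the promoter Ser2P marked a mean of 33.75 ± 2.63 genes and Ser5P 33.75 ± 1.26 (SD, n = 4 each), a difference of 0.0 (two-sided exact permutation test over 70 arrangements, p = 1.0), with 1.0 within KD and -1.0 within control. In the body Ser2P marked 25.5 ± 2.65 and Ser5P 23.75 ± 1.26 genes, a difference of 1.75 (exact p = 0.3429), with 2.0 within KD and 1.5 within control. The 5 genes with the broadest promoter cover were Slc25a10, Slc25a11, Slc25a40 and Slc25a29 for both antibodies, with Slc25a25 for Ser2P and Slc25a3 for Ser5P.

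**Figure D5:**
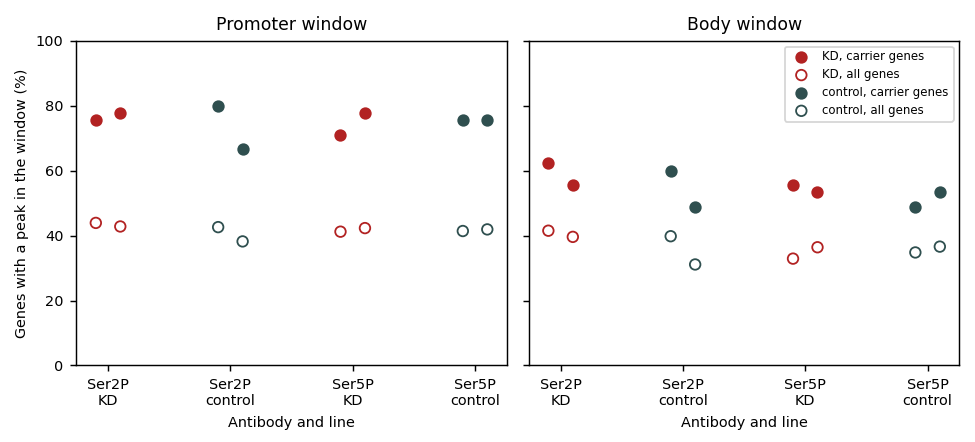
Share of genes with a peak in the promoter window (left) and body window (right), in %, by antibody and line. Filled points are the 45 carrier genes and open points all genes, 1 point per library: in every library the carrier genes lie higher, at 66.7% to 80.0% against 38.2% to 43.9% at the promoter.

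Before scaling for total cover, Ser2P peaks covered more of the promoter in KD at most of the carrier genes, by a median close to that of all genes. Both KD libraries lay above both controls in 21 of the 45 genes (46.7%), against 21.5% of all genes, and below both in 3 (6.67%), against 1.03%. These shares include genes without a Ser2P promoter peak in any of the 4 libraries, which were 15.6% of the carrier genes and 53.3% of all genes. Of the 38 carrier genes with a Ser2P promoter peak, 32 were higher in KD on average, and the median difference was 7.2 percentage points of the window, against 7.35 over the 10049 genes fitted. Without Ser2P control 2 the medians were 4.47 and 3.67 points, and without Ser2P control 1 they were 12.2 and 11.1. The Ser2P KD libraries were deeper and had wider peaks than the Ser2P control libraries, as given above. The part of depth and width in this was not tested. When each library was scaled to the same total covered bp, summed over that window in all genes, the medians became -3.03 points in carrier genes and -1.3 over all genes. This scaling takes away a mean difference in covered bp over all genes by construction. The loss of the shift is therefore no test of its cause. The carrier genes without overlap then numbered 7 above and 10 below, against 7.6% and 11.9% of all genes. For Ser5P the median was 3.0 points in the carrier genes, against 1.77 over all genes fitted, with 11 genes above without overlap, against 11.7%, and 4 below, against 4.94%. No Ser5P promoter peak was present in any library at 9 of the 45 carrier genes, against 54.5% of all genes. After the same scaling the Ser5P numbers were 4 above and 8 below, against 7.09% and 10.2% of all genes. The Ser5P medians were then 0.473 points in the carrier genes and -0.673 over all genes. In the body both KD libraries lay above both controls in 8 carrier genes for Ser2P, against 16.7% of all genes, and below in 1, against 1.72%, which turned to 2 above and 9 below after scaling, against 8.01% and 8.66% of all genes. For Ser5P they lay above in 6, against 6.96%, and below in 4, against 7.17%.

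In limma fits on the covered share of each window over all genes, 0 genes passed an adjusted p of 0.05 for either antibody in either window, so no carrier gene did. At an unadjusted p under 0.05, Ser2P promoter cover was higher in KD in 1428 genes (14.2%), 7 of them carrier genes, and lower in 43 (0.428%), 1 of them a carrier gene. Single libraries moved these counts over all genes, which were 863 higher and 306 lower without Ser2P control 2, 2411 and 87 without Ser2P control 1, and 896 and 51 without Ser2P KD 1. Scaled to equal total cover they were 567 and 257. The 7 were Slc25a21, higher by 50.12 ± 8.16 percentage points (SE; limma adjusted p = 0.254), Slc25a34 (21.09 points), Slc25a11 (20.49), Slc25a32 (14.82), Slc25a33 (26.36), Slc25a39 (27.24) and Slc25a17 (21.81), with limma adjusted p between 0.254 and 0.324. The 1 was Slc25a26, at -16.72 points. Without Ser2P KD 1 Slc25a39 was at 17.57 points, and without Ser2P KD 2 Slc25a17 was at 13.12. After scaling to equal total cover Slc25a33 was at 16.43 points, Slc25a39 at 17.32, Slc25a17 at 8.05, Slc25a11 at 4.20 and Slc25a32 at 1.37. For Ser5P promoter cover 648 genes (6.61%) were higher in KD at an unadjusted p under 0.05 and 216 (2.2%) lower, and Slc25a33 alone of the carrier genes was among them, at 17.69 ± 3.87 points (limma adjusted p = 0.378). With the authors' peaks limited to a −log10 q of at least 5 it was at 0.35 points.

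In the body, 986 genes (9.26%) had higher and 67 (0.629%) lower Ser2P cover in KD at an unadjusted p under 0.05. Without Ser2P control 2 these were 561 and 564 genes, without Ser2P control 1 they were 1432 and 126, without Ser2P KD 2 they were 1486 and 80, and scaled to equal total cover they were 482 and 291. Slc25a39 was the carrier gene among them, higher by 4.76 ± 0.39 points (SE; limma adjusted p = 0.204). The start of its RefSeq promoter lies 1158 bp inside the outer 5′ end, and thus in the body window. Ser2P peaks covered the whole of the 300 bases around that start in KD 1 and 27.0% in KD 2, against 0.0% and 0.0% in control, so the cover counted here as body lies at an annotated start. For Ser5P 418 genes (4.23%) were higher, Slc25a10 and Slc25a32 among them, and 351 (3.55%) lower, among them Slc25a22, Slc25a23, Slc25a30 and Slc25a41, with limma adjusted p between 0.348 and 0.615. Slc25a30, at -2.19 points, had 592 and 417 bp of Ser5P in KD, against 1145 and 1246 bp in control. With the authors' peaks limited to a −log10 q of at least 5, 7478 genes were fitted for the Ser5P body. Of these 328 were higher and 333 lower in KD at an unadjusted p under 0.05. The carrier genes among them then numbered 0 in either direction.

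A gene was called KD-only where both KD libraries and neither control library had a peak, and control-only in the reverse case. At the promoter Slc25a34 was KD-only for Ser2P (1.1% of all genes) and Slc25a26 control-only (0.2%), and for Ser5P 0 carrier genes were called, against 0.409% and 0.446% of all genes. In the Ser2P body Slc25a39 was KD-only (2.25%) and 0 carrier genes control-only (0.548%). In the Ser5P body Slc25a5, Slc25a10 and Slc25a32 were KD-only (1.08%) and Slc25a22 and Slc25a23 control-only (1.44%). Most of these calls moved with the peaks used. With a −log10 q of at least 5, the call at Slc25a39 alone was kept. With equal numbers of peaks per library those at Slc25a34, Slc25a26, Slc25a22, Slc25a23 and Slc25a32 were lost. Slc25a5 was called on 94 and 2 bp of Ser5P in KD, the edge of its promoter peak. Slc25a39 had 388 and 345 bp of Ser2P in KD, against 0 and 0 bp in control, of which the first peak had its summit 55 bp and the second 1382 bp inside the 5′ end, and it was not called when peaks that overlap a promoter window were left out. Slc25a10 had 497 and 1084 bp of Ser5P inside the gene in KD, against 0 and 0 bp in control, and 1149 and 329 bp of Ser2P in KD, against 0 and 229 bp in control. Slc25a32 had 329 and 509 bp of Ser5P in KD, against 0 and 0 bp in control, all 341 to 763 bp past the 3′ end by summit. Slc25a22 had 0 and 0 bp of Ser5P in KD, against 360 and 513 bp in control, and Slc25a23 0 and 0 bp in KD, against 326 and 284 bp in control.

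The other mitochondrial transporters listed, 23 in all, among them the pyruvate carrier genes Mpc1 and Mpc2 and the channel genes Vdac1 to Vdac3, were marked at the promoter in all 4 Ser2P libraries in 20 cases and in all 4 Ser5P libraries in 19. Ucp1, the uncoupling protein of brown fat, and Slc25a37, mitoferrin 1, had no promoter peak of either antibody at the outer 5′ end. Slc25a38, a glycine carrier needed for haem synthesis, had 497 and 666 bp of Ser2P in KD, against 508 and 619 bp in control. The machinery that imports carrier proteins, such as Tomm70a and Timm22, was marked at the promoter in 12 of 12 genes in all libraries of both antibodies. In the body Ucp2 was KD-only for Ser2P (2.25% of all genes), on no more than 47 and 89 bp in KD. For Ser5P Tomm70a was KD-only (1.08%) and Ucp3 control-only (1.44%). None of these 35 genes passed an adjusted p of 0.05 in limma, the smallest being 0.254.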

How the data were processed

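CUT&Tag peak lists of 8 MEL libraries were used, called per library with MACS2 2.2.7.1. The submitters' processing notes name, besides, Bowtie2 2.3.5, Picard 2.21.4, cutadapt 2.7, deepTools 3.3.1 and SAMtools 1.9, and GRCm38/mm10. The sources used here give neither parameters nor a control library for peak calling. For each peak the authors deposited a display score, a fold enrichment ratio, −log10 p and −log10 q values and a summit offset. These belong to each list and served only to rank, filter or describe peaks. The summit pileup and background pileup were solved from fold and p by trying whole numbers, with a tolerance of 0.001 on −log10 p. Read totals were not used here, and peaks off the autosomes, X and Y (24 to 30 in a library) were dropped.

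Gene intervals came from RefSeq GRCm38.p6. Strand came from the RefSeq promoter table (17492 genes) or, by symbol (3649) or synonym (395), from GENCODE vM1, and 351 genes had none. Each gene's outer boundary served as its 5′ end, so inner starts are not seen. The supplied NCBIM37 genome has another build and was not used. Covered bp per window were computed for every library, and the covered share was fitted with limma 3.58.1 over genes marked in 1 or more of an antibody's 4 libraries, with Benjamini-Hochberg adjustment. Counts of carrier genes were compared by exact permutation over libraries. The recovery of pileups and the limma fit were tested on simulated data. The computation of cover was checked by a direct recount at random genes in a single library. Genes are named where called, past an unadjusted p of 0.05, among the 5 broadest per antibody and window, or without any peak, with examples from each role list, and 1 gene that this rule takes is not reported here. Members and lists were chosen with earlier results of these data known. Libraries were treated as unpaired, since the labels do not say what equal replicate numbers share. Of the alternatives in the closing section, using every RefSeq start and leaving out body peaks that overlap a promoter window were chosen after seeing the data.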

Additional observations from a re-analysis of the deposited data

Results flagged for a closer look

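At 3 of the 45 promoters (6.67%) every KD library lay on one side of both controls for Ser2P and on the other side for Ser5P, against 455 of all 21536 genes (2.11%). A gene without a promoter peak of either antibody cannot show this pattern. No Ser2P promoter peak was present at 15.6% of the carrier genes, against 53.3% of all genes. For Ser5P this held at 9 of the 45, against 54.5% of all genes. The shares of 6.67% and 2.11% are therefore not like for like. The 3 were picked for this pattern, and the difference between antibodies was not tested. In the body window 0 of 45 carrier genes did so, against 2.09% of all genes, and 45 genes are too few to tell such a share from none. At Slc25a3 the difference, KD minus control, was 497.5 bp of covered window for Ser2P and -108.5 bp for Ser5P. At Slc25a16 it was 524.5 bp for Ser2P and -32.0 bp for Ser5P, with 0 bp in Ser2P control 2. At Slc25a1 it was -131.0 bp for Ser2P and 199.5 bp for Ser5P.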

How the results depend on the processing

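The number of genes past an adjusted p in limma stayed at 0 in most settings and 0 carrier genes passed in any. Without a filter on genes 21 passed for the Ser2P promoter, 20 for the Ser5P promoter, 60 for the Ser2P body and 67 for the Ser5P body. Without the 3′ extension 5 passed for the Ser2P body and 4 for the Ser5P body, with equal numbers of peaks 2 for the Ser5P body, and on the log2(covered bp + 100) scale 76 for the Ser5P promoter. The cause was not tested. With replicate number as a replicate block 0 genes passed in each fit. The numbers are shared labels only, since deviations of same-numbered libraries correlated at 0.00187 and 0.0906 for Ser2P promoter and body and 0.0379 and 0.013 for Ser5P.

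Differences in the number of carrier genes with a peak, KD minus control, ranged from -1.5 to 4.5 for the Ser2P promoter, -2.0 to 1.0 for the Ser5P promoter, -0.5 to 4.5 for the Ser2P body and 0.5 to 2.5 for the Ser5P body when 1 library was left out. The Ser5P promoter difference was 0.0 with equal numbers of peaks and with a window of 2000 bp each side. The Ser2P body difference was 0.0 without the 3′ extension and -1.0 when peaks overlapping a promoter window were left out. The Ser5P body difference was -2.5 with a −log10 q of at least 5, and 0.0 with at least 200 bp covered and without the extension. Ser2P minus Ser5P was -1.25 at the promoter with a −log10 q of at least 5, -2.0 with equal numbers of peaks, -0.25 with 2000 bp each side and from -0.75 to 1.25 leaving out 1 library. In the body it was 0.0 without the extension and from 0.917 to 2.917 leaving out 1 library. The cause was not tested. Depth limits all of this, since a gene without a peak may hold polymerase below the calling threshold.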
